A study of Homo sapiens with 4 samples.

Results

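The imprinted DLK1-DIO3 cluster of chromosome 14 carries one of the largest groups of miRNAs in the human genome, and its members were followed here in exosomes of colon cancer cells. They were chosen by name, as every mature arm of 42 cluster miRNAs (numbered between miR-127 and miR-889). The rule found 83 mature miRNAs, 41 of the 5p arm, 40 of the 3p arm and 2 without an arm in their name, of 2588 listed in each table. Exosomes are small vesicles that cells release, and small RNA libraries (TruSeq chemistry) were made from exosomes collected by differential ultracentrifugation of conditioned medium. The sphere cultures were HCT15 sphere and HCT29 sphere, floating colonies grown for 3 weeks in DMEM/F12 with N2 supplements, 10 ng/ml bFGF and 10 ng/ml EGF. Their counterparts were HCT15 parental and HCT29 parental, cells of the same human colon cancer lines kept in complete RPMI, with exosomes collected in exosome-depleted complete RPMI. Medium and growth form changed together between sphere and parental cultures and cannot be told apart. For both HCT29 samples the culture description speaks of HCT15 cells, so line names here follow the titles and cell line labels. Each of the 4 groups is 1 library, so differences between a pair of libraries have no replicate error and no p-value.

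Genes of this domain are expressed by parent of origin: DLK1, RTL1 and DIO3 from the paternal chromosome, and the long noncoding RNAs MEG3, MEG8 and MEG9 with the miRNAs from the maternal one. The miRNAs are known from placenta, embryonic and pluripotent stem cells, brain and muscle, and the locus is often silenced in tumours and in some stem cell lines. Each hairpin yields a 5p and a 3p mature arm, and the seed (bases 2 to 8 of the mature miRNA) largely sets its targets.

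The mature sequences of the 8 members with at least 50 reads in a library are shown first, because most member reads belong to them. They come from RefSeq (GRCh38.p14), which matched 82 of the 83 members, and capitals mark the seed.
miR-411-5p: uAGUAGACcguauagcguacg
miR-381-3p: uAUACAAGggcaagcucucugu
miR-654-3p: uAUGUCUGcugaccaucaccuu
miR-409-3p: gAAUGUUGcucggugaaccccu
miR-410-3p: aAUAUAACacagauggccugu
miR-136-3p: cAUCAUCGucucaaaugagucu
miR-127-3p: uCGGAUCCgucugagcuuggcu
miR-493-3p: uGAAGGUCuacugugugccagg
No seed is shared among these 8. Outside the 83 members, miR-300 of the same locus has the seed of miR-381-3p, and it had 0 reads in all 4 libraries.

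The 82 matched members come from 44 hairpins, all on the plus strand of chromosome 14, over 197.7 kb (GRCh38, positions from RefSeq and gene context from GENCODE release 29). An upstream group of 9 hairpins, from 100869060 to 100911213, is separated by 110.9 kb from a downstream group of 35 hairpins, from 101022066 to 101066801. MIR127 (100882979 to 100883075) and MIR136 (100884702 to 100884783) are among 5 upstream hairpins that lie antisense to an exon of RTL1, a retrotransposon-derived gene that miR-127 and miR-136 target in the mouse placenta. MIR493 (100869060 to 100869148) opens the upstream group, in an intron of the long noncoding gene AL117190.1. In the downstream group, MIR411 (101023325 to 101023420) lies in an intron of MEG8 and MIR381 (101045920 to 101045994) in an intron of MIR381HG. MIR654 (101040219 to 101040299) lies in no gene of the plus strand in that annotation, while MIR409 (101065300 to 101065378) is in an intron and MIR410 (101065912 to 101065991) in an exon of MEG9.

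Values are RPM (taken as such for HCT29, whose headers name no unit), read counts scaled to the same total in every library, and they convert to whole reads. The implied totals were 461226 reads for HCT15 sphere, 146648 for HCT15 parental, 530920 for HCT29 sphere and 110666 for HCT29 parental, so that 1 read was 2.17, 6.82, 1.88 and 9.04 RPM in that order. Intervals are exact 95% intervals, Poisson for summed RPM and Clopper-Pearson turned into a ratio for folds, or Wilson intervals for shares of reads. They cover counting error only, and PCR reads without molecular identifiers are not independent molecules. Where a library had 0 reads of a member, a fold marked "at least" was computed with 3 reads in that library, which is 6.50 RPM in HCT15 sphere, 20.5 in HCT15 parental, 5.65 in HCT29 sphere and 27.1 in HCT29 parental. With total exosomal RNA, more vesicles from cells that express the cluster and more of its miRNAs per vesicle cannot be told apart.

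The cluster was far higher in HCT15 than in HCT29 exosomes. Its members summed to 4564 RPM in HCT15 sphere (4371 to 4763) and 1452 RPM in HCT15 parental (1264 to 1661), on 2105 and 213 reads. The same sum was 20.7 RPM in HCT29 sphere (10.3 to 37.1) and 172 RPM in HCT29 parental (103 to 268), on 11 and 19 reads. As shares of all listed miRNA reads, the members held 0.508% in HCT15 sphere, 0.187% in HCT15 parental, 0.00239% in HCT29 sphere and 0.0197% in HCT29 parental. The cluster was therefore a small part of the miRNA content even where it was highest.

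Of the 83 members, 65 had at least 1 read in a library and 18 had none in any. In HCT15 sphere 62 members were seen (74.7%, where 27.5% of all listed miRNAs had a read), and in HCT15 parental 28 (33.7%, against 18.4% of all listed). In HCT29 sphere 7 were seen (8.43%, against 16.3%) and in HCT29 parental 7 (8.43%, against 15.1%). Depth bears on these counts: 4 reads in HCT15 sphere are worth about 1 read at the HCT15 parental depth, and 36 members had at least 4 reads in the sphere library. Of the members, 36 were seen in HCT15 sphere alone, with 550 reads among them, and 3 were seen in HCT15 parental but not in HCT15 sphere, each on 1 read. The 4 members seen in all 4 libraries were miR-127-3p, miR-410-3p, miR-411-5p and miR-409-3p.

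**Figure D1:**
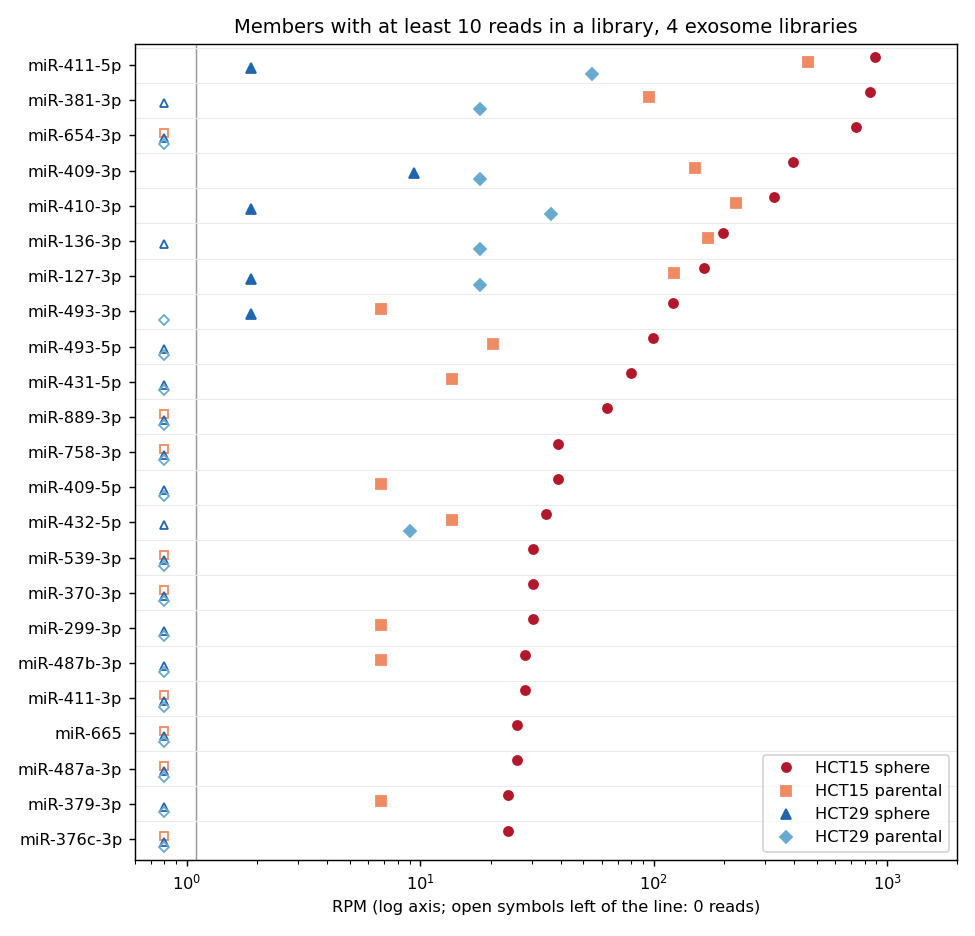
Level of each of the 23 members with at least 10 reads in a library, in RPM on a log axis, with 1 symbol per library and open symbols at the left for 0 reads. HCT15 sphere is the highest library for every one of them, and 15 of the 23 had 0 reads in both HCT29 libraries. All 23 reached 10 reads in HCT15 sphere, 17 of them in that library alone, so the minimum itself favours this order.

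HCT15 sphere exosomes were set against HCT15 parental exosomes to ask which members differ when this line grows as spheres. The summed level was 3.14-fold higher in spheres (2.73 to 3.63), and 2 downstream miRNAs stood out, miR-654-3p and miR-381-3p. A member was measured with at least 10 reads in either library and called at 2-fold or more on the ratio of RPM + 1. By that rule 23 members were measured, of which 19 were called higher and 0 lower, where 32.1% of all 305 measured miRNAs were called higher and 28.2% lower. However, 17 of the 23 passed the minimum through the sphere library alone, which favours a higher ratio, and 9 of them had 0 parental reads. With counts of 0 set to 3 reads, an alternative chosen after seeing the data, 12 members were called higher, as were 80 of the 305. The median log2 ratio of the 23 was 2.47, or 1.29 with counts of 0 at their bound, and that of all 305 was -0.12.

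miR-654-3p had 735 RPM in HCT15 sphere and 0 in HCT15 parental, on 339 and 0 reads, which is at least 35.9-fold higher. At the parental depth the sphere level would be worth 108 reads, and none was seen. The exact interval of this fold begins at 29.1. It was the third most abundant member in the sphere library, and its 5p arm had 5 sphere reads and 0 parental reads.

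miR-381-3p had 846 RPM in HCT15 sphere and 95.5 in HCT15 parental, on 390 and 14 reads, an 8.86-fold difference (5.22 to 16.4). Its hairpin starts 5.70 kb downstream of that of miR-654-3p. miR-409-3p, from the far end of the cluster, had 395 RPM in HCT15 sphere and 150 in HCT15 parental, on 182 and 22 reads, and was 2.63-fold higher (1.69 to 4.30). The intervals of both exclude 1, so these differences exceeded counting error.

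The 4 other members with at least 10 parental reads were within 2-fold. miR-411-5p, the most abundant member in both HCT15 libraries, had 891 RPM in HCT15 sphere and 457 in HCT15 parental, on 411 and 67 reads, a ratio of 1.95 (1.50 to 2.56). miR-410-3p, encoded beside miR-409, had 327 RPM in HCT15 sphere and 225 in HCT15 parental, a ratio of 1.45 (0.993 to 2.19). For miR-127-3p, which is known to repress the oncogene BCL6, the levels were 165 RPM in HCT15 sphere and 123 in HCT15 parental, a ratio of 1.34 (0.795 to 2.39). miR-136-3p had 197 RPM in HCT15 sphere and 170 in HCT15 parental, a ratio of 1.16 (0.737 to 1.88). The intervals of the last 3 include 1 in RPM but not under either other scaling: the lower limits for miR-410-3p, miR-127-3p and miR-136-3p were 1.52, 1.21 and 1.12 under TMM and 1.43, 1.15 and 1.06 under DESeq2 size factors.

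Scaling bears on this group. TMM factors computed on the recovered reads moved the median log2 ratio of all 305 miRNAs by 0.61 and DESeq2 size factors by 0.53, and the calls over all miRNAs, 98 higher and 86 lower in RPM, were 123 higher and 51 lower under TMM and 120 higher and 56 lower under DESeq2 factors. The same shift carried further members past 2-fold, with 22 of 23 called higher under TMM and 21 under DESeq2 factors, and the summed ratio became 4.80 and 4.54. The median log2 ratio of the 23 was then 3.04 and 2.96, and that of all 305 was 0.49 and 0.41, so the distance between them did not widen. miR-411-5p and miR-410-3p were called higher under both, miR-127-3p under TMM, and none of the 23 was called lower under either.

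Among members of the upstream group, both arms of miR-493, a miRNA reported to limit liver metastasis of colon cancer cells, were higher in HCT15 sphere. miR-493-3p had 121 RPM in HCT15 sphere and 6.82 in HCT15 parental, on 56 reads and 1 read, a ratio of 17.8 (3.07 to 716). miR-493-5p had 99.7 RPM in HCT15 sphere and 20.5 in HCT15 parental, on 46 and 3 reads, a ratio of 4.88 (1.57 to 24.5). miR-431-5p, antisense to RTL1, had 80.2 RPM in HCT15 sphere and 13.6 in HCT15 parental, on 37 and 2 reads, a ratio of 5.88 (1.52 to 50.4). These lower limits exclude 1, but the sizes of the folds are poorly fixed by 1 to 3 parental reads.

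The remaining members called higher had 11 to 29 sphere reads and 0 to 2 parental reads. miR-889-3p had 29 reads in HCT15 sphere and 0 in HCT15 parental, and miR-758-3p, miR-370-3p and miR-539-3p had 18, 14 and 14 against 0. The lower limits of their exact intervals were 2.34 for miR-889-3p, 1.40 for miR-758-3p and 1.05 for both miR-370-3p and miR-539-3p. The intervals of the other 9 (miR-409-5p, miR-432-5p, miR-299-3p, miR-411-3p, miR-487b-3p, miR-487a-3p, miR-665, miR-376c-3p and miR-379-3p) include 1. The 42 members with 1 to 9 reads at most summed to 284 RPM in HCT15 sphere and 150 RPM in HCT15 parental, on 131 and 22 reads, a ratio of 1.89 (1.20 to 3.12).

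**Figure D2:**
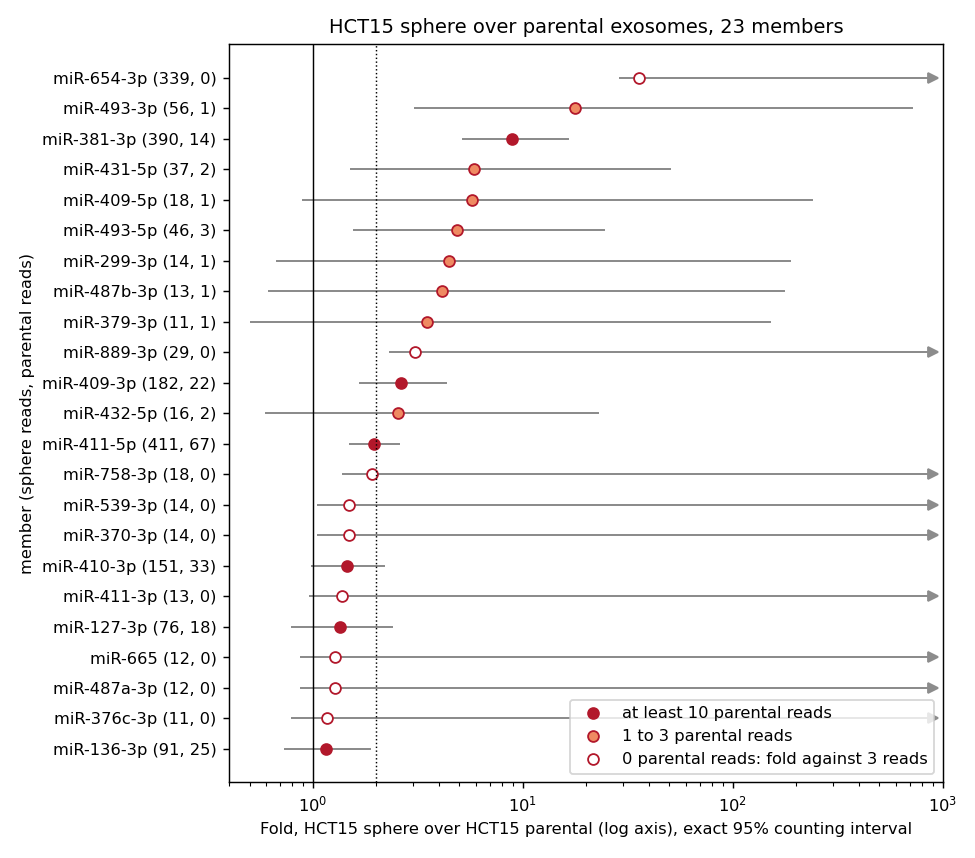
Fold of HCT15 sphere over HCT15 parental for the 23 measured members on a log axis, with exact 95% counting intervals (arrows run past the axis), read counts in the labels, a solid line at 1 and a dotted line at 2. Members with at least 10 parental reads (filled red) sit between 1.16 and 8.86, and open symbols, with 0 parental reads, are lower bounds against 3 reads.

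The make-up of the cluster's reads differed between the HCT15 libraries, and this comparison does not depend on scaling. miR-411-5p held 19.5% of member reads in HCT15 sphere (17.9 to 21.3) and 31.5% in HCT15 parental (25.6 to 38.0). miR-654-3p held 16.1% in HCT15 sphere (14.6 to 17.7) and 0% in HCT15 parental (0 to 1.77), and miR-381-3p held 18.5% (16.9 to 20.2) and 6.57% (3.96 to 10.7). Per 100 reads of miR-411-5p, miR-381-3p had 94.9 in HCT15 sphere and 20.9 in HCT15 parental. The same quantity was 44.3 and 32.8 for miR-409-3p, 36.7 and 49.3 for miR-410-3p, and 22.1 and 37.3 for miR-136-3p. Members of one locus thus did not keep a fixed proportion between these libraries.

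The 6 members with at least 10 reads in HCT15 parental held 61.8% of member reads in HCT15 sphere and 84.0% in HCT15 parental. Their sum was 2821 RPM in HCT15 sphere and 1221 in HCT15 parental, a ratio of 2.31 (1.98 to 2.72), and that of the other 77 was 1743 and 232, a ratio of 7.52 (5.34 to 10.9). This split uses the parental counts that enter the ratios, so it favours a larger ratio in the second set and is given as a description. Without miR-381-3p and miR-654-3p, the sum of the members was 2.20-fold higher in HCT15 sphere (1.89 to 2.56).

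By position, both hairpin groups were higher in HCT15 sphere. The upstream group had 815 RPM in HCT15 sphere and 423 in HCT15 parental, on 376 and 62 reads, a ratio of 1.93 (1.47 to 2.57). The downstream group had 3749 RPM in HCT15 sphere and 1030 in HCT15 parental, on 1729 and 151 reads, a ratio of 3.64 (3.08 to 4.33). The upstream share of member reads was 17.9% in HCT15 sphere (16.3 to 19.6) and 29.1% in HCT15 parental (23.4 to 35.5). The downstream reads include miR-381-3p and miR-654-3p, with 390 and 339 reads in HCT15 sphere and 14 and 0 in HCT15 parental. Without them the ratio over all members of both groups was 2.20 (1.89 to 2.56), a sum that includes the upstream reads. These miRNAs were left out because they stood out in the same data, and both are downstream. Upstream hairpins that also rose stayed in, such as MIR493, with 102 reads in HCT15 sphere and 4 in HCT15 parental. How far the gap between the groups rests on single miRNAs was therefore not tested. Neighbouring hairpins could differ widely: MIR376C, MIR376A2, MIR376B and MIR376A1, which flank MIR654 within about 1 kb, had at most 11 reads of any arm in HCT15 sphere, where MIR654 had 344.

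**Figure D3:**
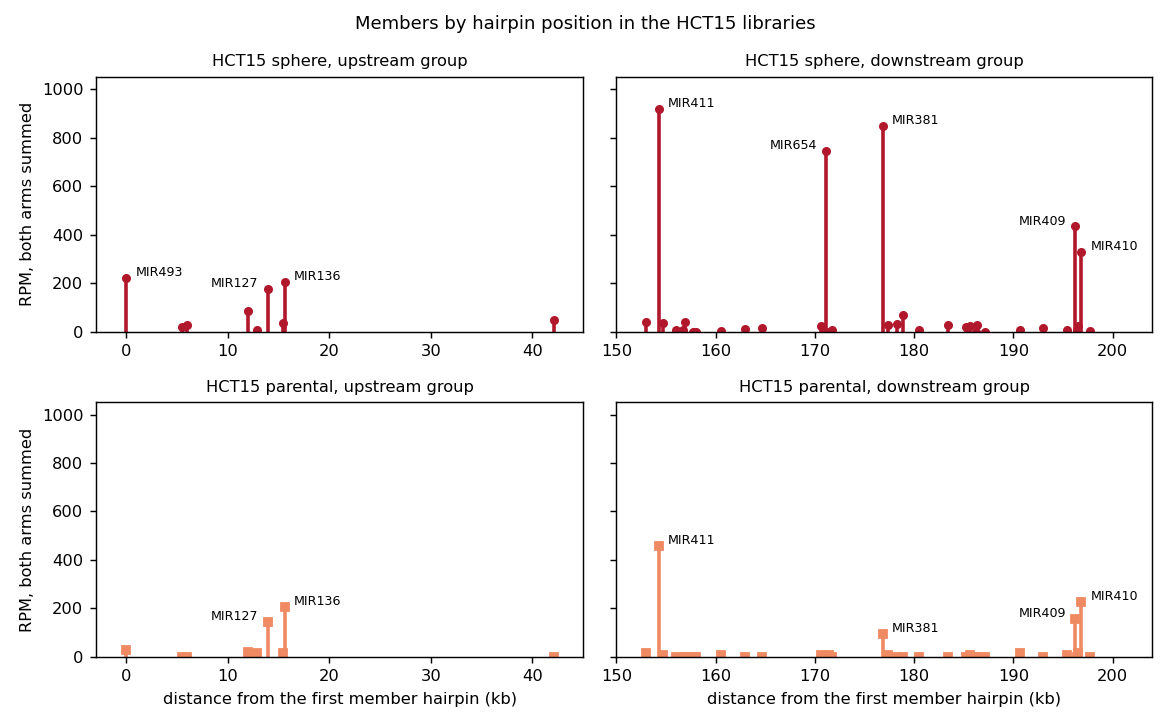
RPM of each hairpin, both arms summed, against its distance in kb from the first member hairpin, for HCT15 sphere (top) and HCT15 parental (bottom), upstream group left and downstream group right. A few hairpins stand far above their neighbours, and MIR654, at 344 sphere reads and 0 parental reads, is tall in the sphere library alone.

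Most miRNA names with at least 10 reads over both arms in an HCT15 library were read mainly from the 3p arm. Over all members the 3p arm held 71.2% of arm-assigned reads in HCT15 sphere (69.2 to 73.1) and 56.8% in HCT15 parental (50.1 to 63.3), while over the reads of all listed miRNAs it held 21.4% in HCT15 sphere and 25.0% in HCT15 parental. Of the 1486 3p member reads in HCT15 sphere, miR-381-3p and miR-654-3p gave 390 and 339, and of the 121 in HCT15 parental 14 and 0. The higher 3p share in HCT15 sphere therefore includes the rise of these miRNAs and need not reflect a change of arm. Of the 22 miRNA names with at least 10 reads over both arms in HCT15 sphere, 17 had more 3p and 5 more 5p reads. In HCT15 parental 5 of 6 had more 3p reads. miR-410 had 151 3p reads and 0 5p reads in HCT15 sphere, and 33 and 0 in HCT15 parental.

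miR-411 was the main exception, with a 3p share of 3.07% in HCT15 sphere (1.80 to 5.17) and 0% in HCT15 parental (0 to 5.42). miR-431 and miR-432 were also read from the 5p arm in HCT15 sphere, with 3p shares of 5.13% and 0%. miR-493 used both arms, at 54.9% 3p (45.2 to 64.2). Arm use of miR-136 was 96.8% 3p in HCT15 sphere (91.0 to 98.9) and 83.3% in HCT15 parental (66.4 to 92.7). These intervals overlap, which does not show equal arm use. miR-136-5p, below the minimum of 10 reads, had 3 reads in HCT15 sphere and 5 in HCT15 parental. Its sphere-over-parental ratio in RPM was 0.191 (0.0296 to 0.981), an interval that narrowly excludes 1 on few reads. Among the 6 names that reached 10 reads in both HCT15 libraries, all 6 kept the same main arm.

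**Figure D4:**
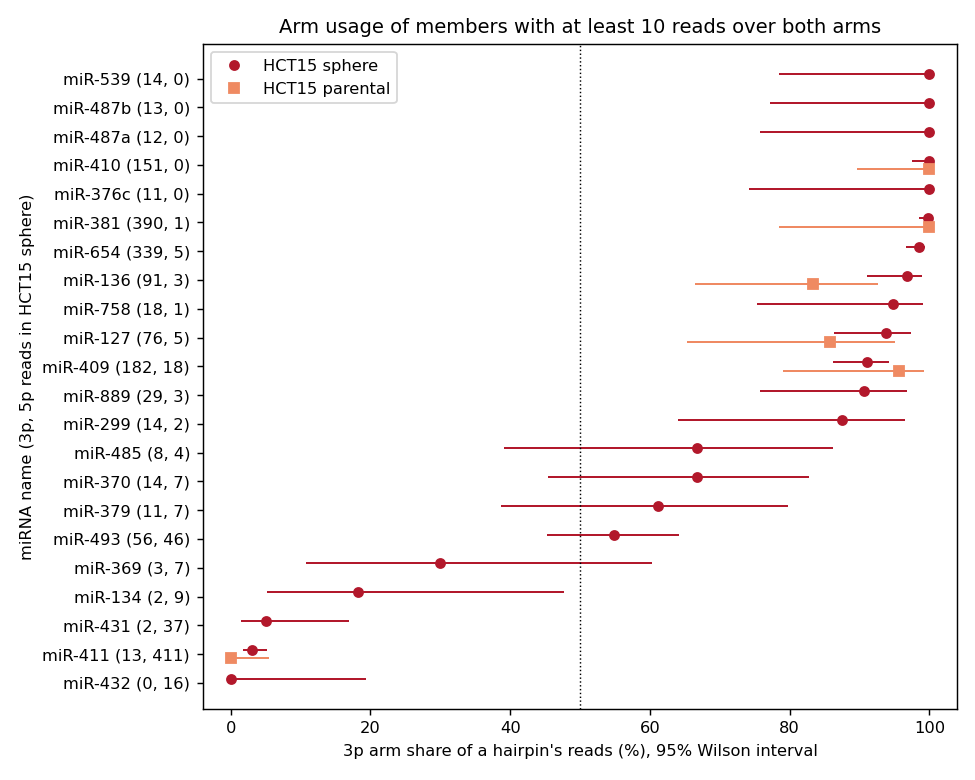
Share of the 3p arm in a miRNA's reads (percent), with 95% Wilson intervals, for names with at least 10 reads over both arms in HCT15 sphere (circles) or HCT15 parental (squares), and a dotted line at 50%. Most names lie right of the line, and miR-411, miR-431 and miR-432 lie near 0.

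Some lesser members share a seed, and these are shown because a shared seed means largely shared targets (capitals mark the seed).
miR-411-3p: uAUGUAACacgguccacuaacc
miR-379-3p: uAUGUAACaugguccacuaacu
miR-539-3p: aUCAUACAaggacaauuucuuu
miR-485-3p: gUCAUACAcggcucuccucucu
miR-487a-3p: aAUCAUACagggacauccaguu
miR-154-3p: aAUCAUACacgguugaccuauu
miR-411-3p and miR-379-3p, from neighbouring hairpins, had 13 and 11 reads in HCT15 sphere, against 0 reads and 1 read in HCT15 parental. miR-539-3p and miR-485-3p had 14 and 8 sphere reads, and both had 0 in HCT15 parental. For miR-487a-3p and miR-154-3p the counts were 12 and 2 in HCT15 sphere, and 0 for both in HCT15 parental. Of the 8 seed-sharing sets among the members, all members had a read in HCT15 sphere in 4, some in 1 and none in 3. The 3 pairs shown are those in which a member reached 10 reads.

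The first base of a mature miRNA affects its loading into Argonaute, which favours U and A. Of the 23 members with at least 10 reads 13 began with U (56.5%), as did 2 of the 17 matched members with 0 reads in all libraries. For A the order was the other way, with 7 of the 23 (30.4%) and 8 of the 17 (47.1%). Among all listed miRNAs with at least 10 reads and a RefSeq match, 45.8% of 295 began with U and 27.1% with A. The median GC content was 45.5% in those 23, 52.4% in those 17 and 47.8% in those 295. These are descriptions of the sequences, without a test.

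In HCT29 the sphere and parental exosomes were compared in the same way, and the cluster was low in both. The most reads any member had in an HCT29 library was 6, so 0 members met the minimum of 10 reads and none was called, where 36.2% of 224 measured miRNAs were called lower. The summed level was 20.7 RPM in HCT29 sphere and 172 RPM in HCT29 parental, 8.29-fold lower in spheres (3.75 to 19.3). This is the opposite direction to HCT15, and TMM scaling reduced it to 3.69-fold (1.67 to 8.57). Over all 224 miRNAs, 52 were called higher and 81 lower, against 94 higher and 36 lower under TMM scaling, which moved the median log2 ratio by 1.15.

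miR-411-5p had 1.88 RPM in HCT29 sphere and 54.2 in HCT29 parental, on 1 read and 6 reads, and was 28.8-fold lower (3.49 to 1324). miR-410-3p had 1 read in HCT29 sphere and 4 in HCT29 parental and was 19.2-fold lower (1.90 to 945). miR-409-3p had 5 reads in HCT29 sphere and 2 in HCT29 parental, 9.42 and 18.1 RPM, with an interval for the sphere-over-parental ratio of 0.0853 to 5.47. miR-381-3p and miR-136-3p each had 0 reads in HCT29 sphere and 2 in HCT29 parental, and miR-127-3p had 1 read in HCT29 sphere and 2 in HCT29 parental. miR-654-3p had 0 reads in both.

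The 19 reads of HCT29 parental fell on few members: 18 belonged to the 6 members with at least 10 reads in HCT15 parental, and the other to miR-432-5p. Of the 11 reads in HCT29 sphere 8 belonged to those 6. In HCT29 parental miR-411-5p held 31.6% of member reads (15.4 to 54.0), close to its 31.5% in HCT15 parental, but the interval on 19 reads is wide.

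**Figure D5:**
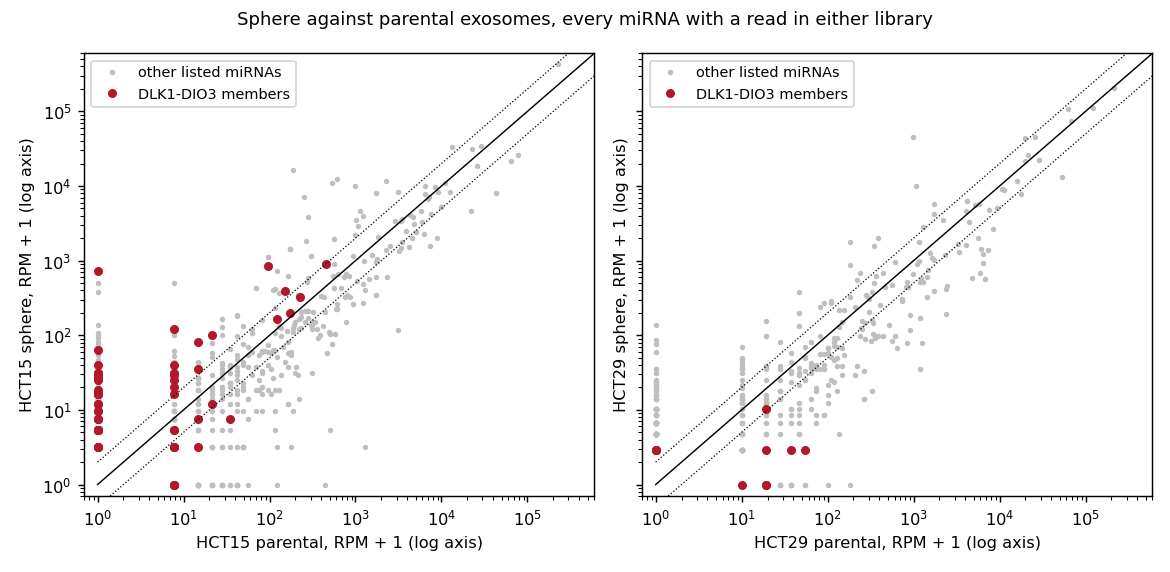
RPM + 1 of sphere (vertical) against parental exosomes (horizontal) on log axes for every miRNA with a read in either library, HCT15 left and HCT29 right, with lines at equal levels and at 2-fold. In HCT15 most members (red) lie on or above the line of equality, and in HCT29 the 10 members seen lie at the low end, none above 10 RPM in spheres.

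The lines were compared within each culture form to ask how far the cluster marks HCT15. In sphere exosomes, 23 of 23 measured members were called higher in HCT15 than in HCT29, where 56.0% of 325 miRNAs were, and all 23 passed the minimum through the HCT15 library alone. miR-411-5p had 891 RPM in HCT15 sphere and 1.88 in HCT29 sphere, a ratio of 473 on 1 HCT29 read (84.4 to 1.87e+04). miR-381-3p had 390 reads in HCT15 sphere and 0 in HCT29 sphere and was at least 150-fold higher, and miR-654-3p, with 339 and 0 reads, at least 130-fold. miR-409-3p was 41.9-fold higher (17.6 to 131).

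In parental exosomes the gap was smaller. All 6 measured members were called higher in HCT15 than in HCT29, where 46.4% of 224 miRNAs were, and again the minimum was met in HCT15 alone. In HCT15 parental miR-411-5p reached 457 RPM, against 54.2 in HCT29 parental, 8.43-fold higher (3.68 to 23.8). The other 5 (miR-136-3p, miR-409-3p, miR-127-3p, miR-410-3p and miR-381-3p) were 5.28- to 9.43-fold higher, each with an interval that excludes 1.

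A fit over all 4 libraries used the cultures of a line as its replicates. Nothing in the labels says how the cultures relate. With line and culture form both fitted, its p-values rest on how far the sphere-over-parental change differed between the lines, pooled over miRNAs. They do not measure the spread between replicate cultures of a line. limma was run on log2(RPM + 1) with line and culture form as terms, over the 222 miRNAs that had 10 or more reads in 2 or more libraries. For the line effect it called 6 of 6 tested members higher in HCT15 (Benjamini-Hochberg adjusted p under 0.05), where 9.01% of all tested were called higher. The log2 difference was 5.66 (SE 1.27, adjusted p 0.000768) for miR-411-5p and 4.27 (SE 1.52, adjusted p 0.043) for miR-127-3p, each higher in both HCT15 libraries than in either HCT29 library. For miR-381-3p, miR-136-3p, miR-410-3p and miR-409-3p it lay between 4.12 and 6.03, with limma adjusted p from 0.00196 to 0.0234.

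These 6 passed the minimum through both HCT15 libraries alone, so the count does not support a difference by itself. The fit has 1 residual degree of freedom. edgeR's quasi-likelihood test called 0 of the 6 (6 at an unadjusted p under 0.05, adjusted p 0.0738 to 0.132), DESeq2 called 2, miR-381-3p and miR-411-5p, and limma without the culture term called 0. Without HCT15 sphere, HCT15 parental or HCT29 sphere limma called 0, and without HCT29 parental 5, and adjusted p over all alternatives ran from 0.000329 to 0.495. For the culture effect limma called 0 of 6 members, with 0 at an unadjusted p under 0.05, as did edgeR and DESeq2. Over all 222 miRNAs 0.0% were called by limma (12 at an unadjusted p under 0.05), 0 by edgeR and 1 by DESeq2. The culture term averages the lines, and their changes could run in opposite directions. For miR-411-5p the log2 ratio was 0.96 in HCT15 and -4.26 in HCT29. The lack of calls therefore does not show that culture form had no effect within a line.

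Other miRNAs of the locus and of other cell types were read in the same libraries. Of 10 further mature miRNAs of the locus that the name rule leaves out, 5 were seen in HCT15 sphere, with 29 reads, and 1 in HCT15 parental, with 1 read, a ratio of 9.22 (1.53 to 377). The largest was miR-1185-1-3p, with 14 reads in HCT15 sphere and 0 in HCT15 parental, and none of the 10 was seen in HCT29. miR-345-5p, from a hairpin on the same chromosome outside the cluster, had 199 reads in HCT15 sphere and 100 in HCT15 parental, or 114 in HCT29 sphere and 15 in HCT29 parental. With both arms of miR-342 and miR-345 summed, the level was 436 RPM in HCT15 sphere and 696 RPM in HCT15 parental, 1.60-fold lower in spheres (1.25 to 2.04).

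Mesenchymal markers (arms of miR-199, miR-214, miR-143 and miR-145, known from fibroblasts and smooth muscle) moved with the cluster between sphere and parental exosomes of each line. With identical entries counted once, 9 of 9 were seen in HCT15 sphere, summing to 4588 RPM, and 4 of 9 in HCT15 parental, summing to 1200 RPM. In HCT29 the list summed to 181 RPM in spheres (2 of 9 seen) and 1482 RPM in parental exosomes (4 of 9 seen). Between the parental libraries the list did not follow the cluster, which had 1452 RPM in HCT15 parental and 172 RPM in HCT29 parental. The sphere-over-parental ratio was 3.82 in HCT15 (3.28 to 4.48), and the list was 8.20-fold lower in spheres in HCT29 (6.33 to 10.7), both near the values of the cluster. Of the list, miR-199a-5p, miR-214-3p and miR-214-5p were at 0 in the other 3 libraries and had 176, 37 and 11 reads in HCT15 sphere. However, miR-199a-3p was seen in every library, with 1123 RPM in HCT15 sphere, 95.5 in HCT15 parental, 13.2 in HCT29 sphere and 262 in HCT29 parental. miR-143-3p supplied most of the list, with 2886 RPM in HCT15 sphere and 1077 in HCT15 parental, or 168 in HCT29 sphere and 1184 in HCT29 parental. The part of such cells or RNA in the result was not tested.

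The primate chromosome 19 cluster, the other large imprinted miRNA cluster, also moved this way in HCT15, with 632 reads over 42 of 64 entries in HCT15 sphere and 7 reads over 3 in HCT15 parental. The list follows miRNA numbers: RefSeq places 48 of the entries on chromosome 19, with 605 reads in HCT15 sphere and 6 in HCT15 parental, and 8 on chromosome X, with 0 reads in all 4 libraries. In HCT29 it had 0 reads in spheres and 2 in parental exosomes. Markers of blood and endothelium moved the other way in HCT15, with 310 RPM in HCT15 sphere (6 of 10 seen) and 4985 RPM in HCT15 parental (9 of 10 seen). In HCT29 they had 810 RPM in spheres (6 of 10) and 2494 RPM in parental exosomes (9 of 10), and the erythroid miR-451a was at 0 in both sphere libraries. Neural markers summed to 451 RPM in HCT15 sphere (5 of 7) and 2312 RPM in HCT15 parental (6 of 7), or 192 RPM in HCT29 sphere (2 of 7) and 325 RPM in HCT29 parental (1 of 7), so they did not follow the cluster in HCT15. Intestinal epithelial markers, which check the labelled tissue, were all seen in every library (8 of 8), at 18316 RPM in HCT15 sphere, 9328 in HCT15 parental, 87394 in HCT29 sphere and 97952 in HCT29 parental. What these lists contribute to the member values was not tested.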

How the data were processed

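miRNAs of exosomes were measured by small RNA sequencing in 4 libraries, 1 per line and culture form. The deposited values are RPM per the file headers of HCT15, while those of HCT29 carry no unit and were taken as RPM. Every HCT29 value is a whole multiple of a single step, which fits scaled counts but does not settle the unit. The totals and RPM of HCT29 and the folds between the lines rest on that reading. The submitters' processing notes name hg19. Not given in the sources used here: the aligner and the annotation release. Reads were recovered by dividing by the smallest step, and 100% of nonzero values were whole within 0.1 read. Listed miRNAs held 77.8 to 89.9% of the totals. Since the deposited values are RPM, log2(RPM + 1) was the main scale. Ratios use 2-fold and at least 10 reads in either library. The fit used limma 3.58.1 with a mean-variance trend; alternatives on recovered reads used edgeR 4.0.16 and DESeq2 1.42.0 (R 4.3.3), and intervals used scipy 1.17.1. Limma and the intervals were tested on simulated data. The data simulated for limma held a line effect only, without a culture effect that differs between the lines. They therefore could not test the error on which the limma p-values rest here. Other settings were TMM and DESeq2 scaling, pseudocounts of 0.1 and 10, no minimum or 20 reads, scaling the deeper library down, leaving out a library, and counts of 0 set to 3 reads (chosen after seeing the data). Members and lists were chosen with earlier results of these data known. The naming rule took members with at least 10 reads in a library, giving values in every library for those with at least 50, the 5 highest and lowest called ratios and those past limma; the marker, locus and seed-sharing miRNAs were named beside it. miR-668-3p had no RefSeq entry, and hairpin positions are on GRCh38, since the tables hold no coordinates.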

Additional observations from a re-analysis of the deposited data

Results flagged for a closer look

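The culture effect on the summed members ran in opposite directions in the lines, with 1 library on each side. The sphere-over-parental ratio of summed RPM was 3.14 in HCT15 and 0.121 in HCT29, on 2105 sphere and 213 parental reads in HCT15 and 11 sphere and 19 parental reads in HCT29. miR-411-5p was the one member whose counting interval excluded 1 in both lines in opposite directions, with a log2 ratio of 0.96 in HCT15 and -4.26 in HCT29, the second on 1 sphere read and 6 parental reads. These differences between the lines were not tested, since each culture of a line is a single library. Mesenchymal markers had ratios of 3.82 in HCT15 and 0.122 in HCT29.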

How the results depend on the processing

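No paired analysis was possible because each group holds 1 library and the labels carry no replicate numbers to pair by; the limma fit of the culture effect does keep line as a term. Without a read minimum, members called higher and lower in HCT15 spheres were 49 and 8 of 65, and in HCT29 spheres 3 and 6 of 10. Over all miRNAs these counts were 390 and 227 of 790 in HCT15, and 176 and 236 of 532 in HCT29. Higher in HCT15 than in HCT29 were then 61 of 62 in spheres and 27 of 28 in parental exosomes, against 509 of 802 and 289 of 573 over all miRNAs. A minimum of 20 reads left 7 of 11 members higher in HCT15 spheres and 11 of 11 between the sphere libraries. All miRNAs gave 67 of 225 and 135 of 245 under that minimum. Scaling the sphere reads down to the parental depth left 6 of 10, and counts of 0 set to 3 reads left 12 of 23. For all miRNAs these were 55 of 229 and 80 of 305. The summed HCT15 ratio of 3.14 became 4.80 under TMM, 4.54 under DESeq2 factors and 3.69 without miR-411-5p. The HCT29 ratio of 0.121 became 0.271 under TMM.

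For the line effect, limma called 6 members, and 20 of all 222 miRNAs, higher in HCT15. A pseudocount of 0.1, a fit without the culture term and edgeR each gave 0 members, DESeq2 gave 2 and no minimum gave 3 of 65. All miRNAs called higher under these were 3, 5, 5 and 8 of 222, and 12 of 905 with no minimum. Leaving out each library, fitted without the culture term, gave 0 to 5: 0 without HCT15 sphere, HCT15 parental or HCT29 sphere, and 5 without HCT29 parental. Adjusted p of the 6 ranged from 0.000329 to 0.495 over the alternatives, so no call held throughout. For the culture effect, which was not refitted without single libraries, no member passed in any of the 7 alternatives run, and the log2 difference of miR-381-3p (-0.56) turned to 0.77 with a pseudocount of 10, 1.39 under edgeR and 0.53 under DESeq2. The causes were not tested. No called log2 ratio of a single member changed sign in any setting. Members with few parental reads are limited by depth.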
